A study of Mus musculus with 16 samples.

Results

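The intercalated disc is the seam where cardiac muscle cells meet end to end, and the 10 genes described here encode its 3 kinds of junction. *Gja1*, *Gja5* and *Gjc1* encode gap junction connexins, *Dsp*, *Pkp2*, *Jup*, *Dsc2* and *Dsg2* encode the desmosome, and *Cdh2* and *Ctnna3* encode the adherens junction. The members were taken by gene symbol, as 10 of the 55487 genes in the count matrix, and all 10 were among the 18275 genes with enough counts to be tested. RNA was sequenced from the apex of the heart of male mice, 4 weeks after surgery, in 4 groups of 4 animals. Ctrl mice carried the WT genotype and CARDINAL-KO mice, here called KO, carried a CRISPR/Cas9 deletion of the cardiac lncRNA *Cardinal*. Each genotype had either a sham operation or transverse aortic constriction (TAC), in which a suture narrows the aorta and the left ventricle pumps against a raised pressure, giving the groups Ctrl sham, Ctrl TAC, KO sham and KO TAC. The age and the strain of the animals are not given in the sources used here. No cell type-specific driver is given for the deletion, and RNA was taken from the tissue as a whole, so each value covers all cells of the apex.

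Gap junctions are channels that pass current from cell to cell, and connexins are the subunits of these channels. Desmosomes and adherens junctions are the anchors: cadherins reach across the gap between cells, and plaque proteins tie them to intermediate filaments in the desmosome and to actin in the adherens junction. Inherited mutations in desmosome genes are a known cause of arrhythmogenic cardiomyopathy, and the amount and position of the connexins are known to change in hypertrophied and failing hearts.

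Of the 10 genes, 6 changed after TAC in KO hearts, 4 higher and 2 lower, where 17.8% of all tested genes were higher and 16.5% lower. In Ctrl hearts 1 was higher and 1 lower, against 10.4% and 9.60% of all genes. *Dsg2*, a desmosomal cadherin, fell in both genotypes, to 0.613 of its sham level in Ctrl hearts and to 0.652 in KO hearts. *Jup*, which encodes the plaque protein plakoglobin, rose in both, by 1.17-fold and 1.19-fold. *Gjc1*, the connexin of the early heart and of conduction tissue, rose 1.63-fold after TAC in KO hearts, and its change in Ctrl hearts did not pass the test. *Pkp2* rose and *Ctnna3* fell after TAC in KO hearts, and *Gja5* rose there by 1.30-fold, a call lost in 5 of 16 fits that left 1 library out. The edgeR test of whether the response to TAC differed between the genotypes called 0 of the 10 members (0.0109% of all genes). A call in KO hearts alone therefore does not show a response particular to KO hearts. In the sham hearts, no member was called between the genotypes, and *Gjc1* was the member called between KO TAC and Ctrl TAC, a call that was lost when any of 6 libraries was left out.

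Levels are given as CPM, the counts of a gene scaled to the total of its library, after TMM normalization, which corrects for libraries dominated by a few genes. Changes are log2 fold changes with their SE, and adjusted p-values are from edgeR's quasi-likelihood test with Benjamini-Hochberg adjustment over all 18275 genes. A gene was called when its adjusted p was below 0.05, and 2 groups were said not to overlap when every library of one lay above every library of the other. Each of the 16 libraries carries its own animal number, so p-values measure the spread between libraries of separate animals within a group. The labels do not say how the animals were related.

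The libraries held 53169437 to 79404714 counts, and members had 181 to 96898 counts per library. *Cardinal* itself was at 2.69 to 8.03 CPM in the 8 Ctrl libraries and at 0.276 to 0.553 CPM in 7 KO libraries, but the library labelled KO TAC 4 held 4.54 CPM, against its label. The animal numbers of KO TAC 4 and of Ctrl TAC 2, 3 and 4 start with 25 and all others with 3, so most Ctrl TAC animals come from a number series that holds no sham animal. The numbers of Ctrl sham 4 and of KO sham 1, 2 and 3 start with 33. The 10 cardiomyocyte markers were detected in every library, and their summed level was 28279 to 29644 CPM in KO TAC against 30861 to 33745 CPM in the other 3 groups. The 7 fibroblast markers summed to 557 to 668 CPM in sham hearts, 996 to 1345 CPM in Ctrl TAC and 1406 to 1592 CPM in KO TAC. In bulk tissue, fewer cells of a type and less RNA per cell cannot be told apart, and the part of these shifts in the results below was not tested except where a value is given.

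The promoters of the called members were looked up in the RefSeq table on build GRCm38.p6, in a window of 250 bases before to 50 bases after a RefSeq transcript start. The table listed 5 of the 10 members, *Gja1*, *Gja5*, *Dsp*, *Jup* and *Ctnna3*. The 3 of these that changed after TAC are shown on the strand of the gene, and capitals mark a GC box (GGGCGG on either strand), the binding motif of Sp1. The *Gja5* window is chr3:97032152-97032451 on the plus strand, the *Jup* window chr11:100397741-100398040 on the minus strand, and the *Ctnna3* window, the first of 3 listed starts, chr10:63429848-63430147 on the plus strand. The *Gja5* start lies 127.7 kb downstream of the first base of the gene in GENCODE, so the window surrounds 1 transcript start of the gene and not that first base.
Gja5: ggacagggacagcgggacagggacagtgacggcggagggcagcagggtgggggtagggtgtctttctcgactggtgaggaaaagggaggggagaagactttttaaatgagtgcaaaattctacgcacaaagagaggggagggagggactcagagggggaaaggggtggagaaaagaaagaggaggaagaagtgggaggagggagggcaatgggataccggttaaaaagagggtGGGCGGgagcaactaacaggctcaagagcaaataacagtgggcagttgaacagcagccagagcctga
Jup: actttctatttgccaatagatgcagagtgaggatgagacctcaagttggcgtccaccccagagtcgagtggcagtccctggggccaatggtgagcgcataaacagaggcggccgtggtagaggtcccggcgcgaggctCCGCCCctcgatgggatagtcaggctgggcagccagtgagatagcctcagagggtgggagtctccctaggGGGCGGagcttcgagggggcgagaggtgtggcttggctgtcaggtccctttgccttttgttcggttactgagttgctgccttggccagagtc
Ctnna3: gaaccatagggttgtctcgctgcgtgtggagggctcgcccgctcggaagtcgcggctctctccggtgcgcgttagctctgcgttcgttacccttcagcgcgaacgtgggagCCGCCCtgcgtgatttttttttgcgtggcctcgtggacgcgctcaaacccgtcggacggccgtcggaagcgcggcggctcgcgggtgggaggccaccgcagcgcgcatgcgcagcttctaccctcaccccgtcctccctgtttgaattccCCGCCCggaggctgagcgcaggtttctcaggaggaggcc
The GC box occurred once in the *Gja5* window, 2 times in the *Jup* window and 2 times in the *Ctnna3* window, and 35.7% of 32841 promoters of the same length held at least 1. *Dsp* had 4 matches and *Gja1* had 0, so the box was present in members that rose, that fell and that were not called. The other motifs were searched on both strands too, and no match overlapped a GC box. The letters of the AP-1 motif, TGANTCA, occurred in 7.81% of all promoters. The MCAT element, CATTCC, known from muscle genes, occurred in 14.7%. The GATA motif was searched as AGATAA and found in 11.2%. The TATA box was searched as TATAAA and found in 13.6%. Of the 5 windows, only that of *Gja1* held any of these, with 1 AP-1 match and 1 GATA match. GC content was 55.7% for *Gja5*, 60.7% for *Jup* and 67% for *Ctnna3*.

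Levels can be compared between genes only per length, here as CPM per kb of exon in the GENCODE M21 annotation of GRCm38. *Dsp*, which encodes desmoplakin, the plaque protein that binds intermediate filaments, had the highest level per length in all 4 groups, at 139 CPM per kb in Ctrl sham. *Gja5* had the lowest, at 0.657 CPM per kb in the same group, and over all 16 libraries the level per length of *Dsp* was 194 times that of *Gja5*. The order in Ctrl sham went from *Dsp* to *Cdh2* (35.7 CPM per kb), *Jup* (27.1), *Pkp2* (25.5), *Gja1* (22.2), *Dsg2* (12.8), *Dsc2* (6.93), *Gjc1* (3.48), *Ctnna3* (3.22) and *Gja5*. *Jup*, *Pkp2* and *Gja1* overlapped with their neighbours in this order, as did *Gjc1* and *Ctnna3*, and all other neighbours were apart in every Ctrl sham library.

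*Cdh2* stood above *Jup* in every library of both sham groups, and after TAC their libraries overlapped, with *Jup* at 31.7 and *Cdh2* at 31.1 CPM per kb in Ctrl and *Cdh2* at 32.5 and *Jup* at 31.1 CPM per kb in KO hearts. *Gjc1* and *Ctnna3* overlapped in both sham groups, with *Gjc1* the higher mean in Ctrl sham and *Ctnna3* in KO sham, and *Gjc1* was the higher in every library of Ctrl TAC and KO TAC. The 10 genes summed to 2041 to 2545 CPM per library, and *Dsp* alone gave 57% ± 1.79 (SD, n = 4) of that sum in Ctrl sham and 54.8% ± 1.21 (SD, n = 4) in KO TAC.

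**Figure D1:**
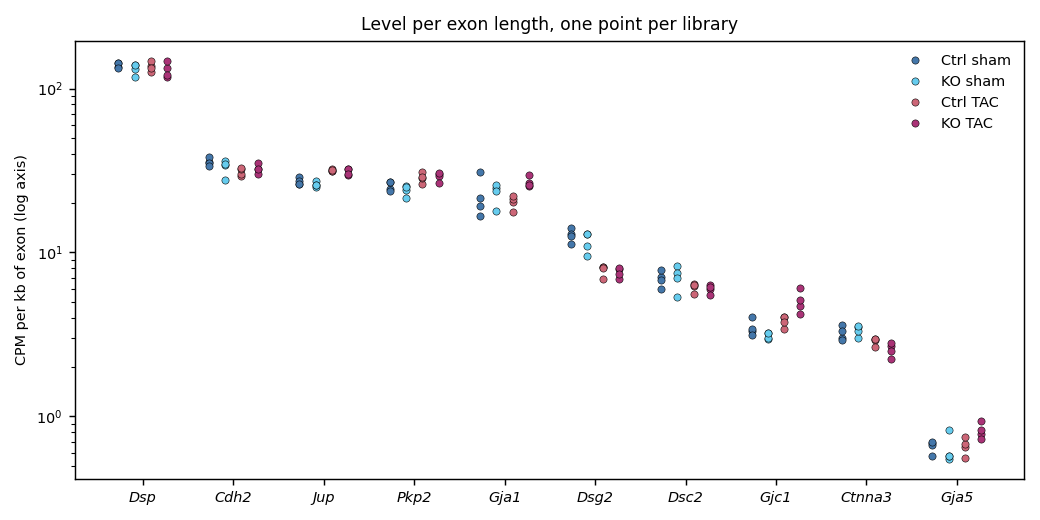
CPM per kb of exon on a log axis for each of the 10 junction genes, 1 point per library, coloured by group. Dsp lies above all other genes in every library, Gja5 lies below all others, and the points of Dsg2 are lower in both TAC groups than in both sham groups.

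Among the connexins, *Gja1* encodes the main connexin of working ventricular muscle. Its levels were 173, 320, 196 and 222 CPM in Ctrl sham replicates 1 to 4 and 254, 263, 243 and 185 CPM in KO sham. After TAC they were 209, 181, 218 and 228 CPM in Ctrl and 272, 260, 305 and 263 CPM in KO hearts. The sham groups overlapped widely, Ctrl sham 2 was above all 15 other libraries, and every KO TAC library lay above every Ctrl TAC library. The change after TAC was -0.12 (SE 0.16, adjusted p = 0.663) in Ctrl and 0.22 (SE 0.16, adjusted p = 0.325) in KO hearts. KO TAC against Ctrl TAC gave 0.39 (SE 0.16, 95% interval 0.05 to 0.74), with an adjusted p of 0.201, and it was 0.0461 when the 8 TAC libraries were fitted without the sham libraries.

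*Gjc1* encodes the connexin found in the early heart tube, in nodal and conduction tissue and in vascular smooth muscle. Ctrl sham hearts had 16.5, 20.3, 17.1 and 15.6 CPM and KO sham hearts 16.1, 14.8, 15 and 16.1 CPM. Ctrl TAC hearts had 20.2, 17.0, 20.1 and 18.9 CPM and KO TAC hearts 23.6, 25.8, 30.4 and 21.1 CPM. All 4 KO TAC libraries lay above the other 12, the highest of which was Ctrl sham 2. *Gjc1* rose by 0.70 on the log2 scale after TAC in KO hearts (SE 0.10, adjusted p = 2.47e-05), and the change in Ctrl hearts was 0.13 (SE 0.10, adjusted p = 0.399). In edgeR the difference between these responses, the genotype by surgery interaction, was 0.57 (SE 0.14, unadjusted p = 0.000662, adjusted p = 0.180). DESeq2 gave an adjusted p of 0.0236 for the same interaction.

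KO TAC exceeded Ctrl TAC in *Gjc1* by 0.41 on the log2 scale (SE 0.10, adjusted p = 0.0361), while KO sham against Ctrl sham gave -0.17 (SE 0.10, adjusted p = 1.00). The *Gjc1* call in TAC hearts was lost when Ctrl TAC 2 (adjusted p = 0.128), Ctrl TAC 3 (0.0631), Ctrl TAC 4 (0.0501), KO TAC 1 (0.0525), KO TAC 2 (0.0868) or KO TAC 3 (0.121) was left out. The call was kept in the other 10 of the 16 fits that left 1 library out. Among these was the fit without KO TAC 4, the library whose *Cardinal* level went against its label. The call was also lost without both Ctrl TAC 2 and KO TAC 4 (0.43, adjusted p = 0.0541) and when the TAC libraries were fitted without the sham libraries (0.40, adjusted p = 0.0815). A fit that also carried the number series of the animals put the *Gjc1* difference at 0.29 (adjusted p = 0.245). Within the series starting with 3, Ctrl TAC 1 had 20.2 CPM and KO TAC 1 to 3 had 23.6 to 30.4 CPM, and within the series starting with 25, Ctrl TAC 2 to 4 had 17.0 to 20.1 CPM and KO TAC 4 had 21.1 CPM. The rise of *Gjc1* after TAC in KO hearts was called in all 25 alternative fits, at 0.60 to 0.86 on the log2 scale.

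The fibroblast marker sum was also highest in KO TAC, and its part in the *Gjc1* result was not tested. Within KO TAC, replicate 3 had the highest *Gjc1* level, 30.4 CPM, and the lowest fibroblast sum, 1406 CPM. KO TAC 2, with the highest sum of 1592 CPM, had 25.8 CPM of *Gjc1*. Within Ctrl TAC, replicate 2 had both the lowest *Gjc1* level, 17.0 CPM, and the lowest sum, 996 CPM. The conduction markers summed to 60.5 to 67.5 CPM in KO sham and 48.9 to 64.0 CPM in KO TAC, and these ranges overlap. Of the 5 tested, 3 fell and 0 rose after TAC in KO hearts, where 16.5% of all genes were lower. Of the 6 smooth muscle and pericyte markers, 3 rose and 0 fell there, where 17.8% of all genes were higher. Their sum was 600 to 620 CPM in KO sham and 597 to 697 CPM in KO TAC. The part of these cell types in the *Gjc1* result was not tested either.

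**Figure D2:**
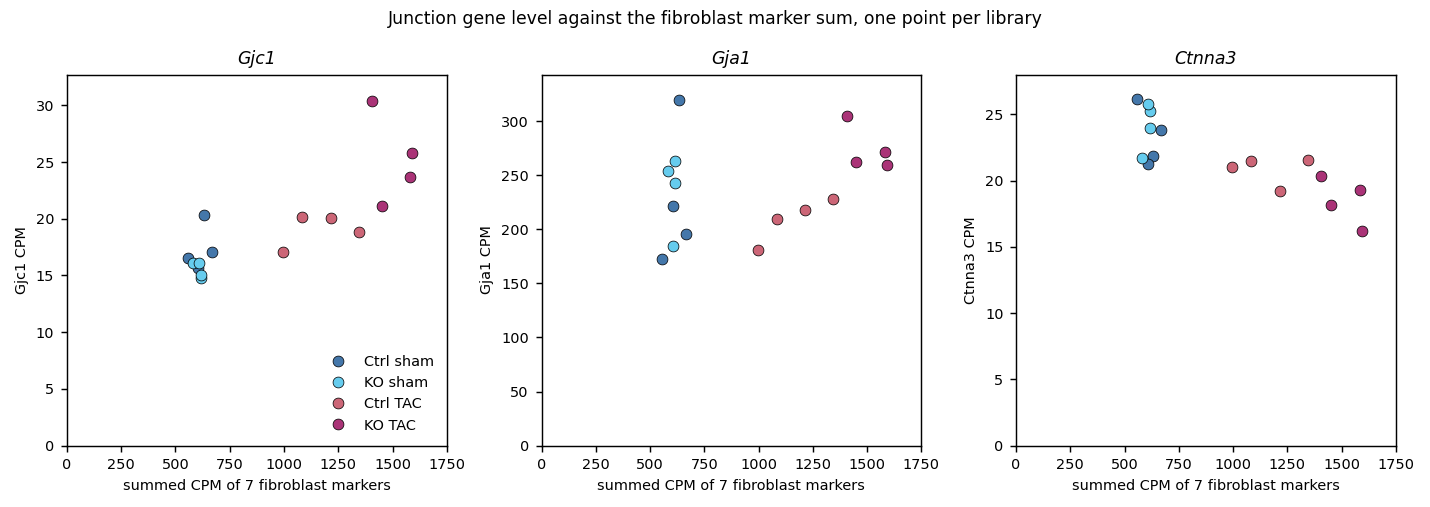
CPM of Gjc1, Gja1 and Ctnna3 (vertical axes) against the summed CPM of 7 fibroblast markers (horizontal axis), 1 point per library, coloured by group. The sham libraries sit at 557 to 668 CPM of marker sum. Within KO TAC the library with the most Gjc1 has the smallest marker sum, and within Ctrl TAC the library with the least Gjc1 has the smallest.

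*Gja5* encodes the connexin of atrial muscle, the fast conduction system and arterial endothelium, and it was the least abundant member. Ctrl sham hearts had 3.29, 3.97, 3.84 and 4.01 CPM, and KO sham hearts had 4.74, 3.17, 3.31 and 3.30 CPM. Ctrl TAC hearts had 3.22, 3.75, 3.91 and 4.28 CPM, and KO TAC hearts had 4.48, 4.21, 5.38 and 4.76 CPM. The KO groups overlapped through KO sham 1, whose level exceeded those of KO TAC 1 and KO TAC 2. *Gja5* rose by 0.37 after TAC in KO hearts (SE 0.13, adjusted p = 0.0368) and changed by 0.01 (SE 0.13, adjusted p = 0.974) in Ctrl hearts. KO TAC against Ctrl TAC gave 0.31 (SE 0.13, adjusted p = 0.208).

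The *Gja5* call in KO hearts was lost without KO sham 2 (adjusted p = 0.112), KO sham 3 (0.0933), KO sham 4 (0.102), KO TAC 3 (0.120) or KO TAC 4 (0.0684), and in the fit adjusted for the number series (0.0704). It was also lost with a term for numbers starting with 33 (0.0536) and in the fit to the 8 KO libraries (0.0532). *Gja5* shares 165 exonic bases with *Gpr89* on the opposite strand, which stood at 14.2 to 17.1 CPM, above *Gja5* itself, and the strand setting of the counting is not given in the sources used here. The 6 arterial endothelial markers summed to 75.8 to 97.9 CPM in KO TAC and 80.4 to 86.5 CPM in KO sham. Of these markers, 1 rose and 0 fell after TAC in KO hearts, where 17.8% of all genes were higher and 16.5% lower. It was the connexin gene *Gja4*, which rose by 0.53 on the log2 scale (edgeR, adjusted p = 0.000365). The part of arterial cells in the *Gja5* result was not tested. Of the 5 atrial markers, *Sln* was at 0 in 12 libraries, *Bmp10* in 7 and *Myl7* in 5. The atrial sum was 2.65 to 4.34 CPM in KO sham and 13.2 to 19.7 CPM in KO TAC. In Ctrl hearts it was 3.37 to 4.12 CPM in sham and 8.24 to 10.5 CPM in TAC. *Dkk3* had 69 to 1190 counts per library, *Myl4* 60 to 159 and *Myl7* at most 55, so the rise of the sum was mostly that of *Dkk3*. Of the atrial markers, *Dkk3* and *Myl4* passed the filter on low counts: *Dkk3* rose 7.69-fold after TAC in KO hearts (edgeR, adjusted p = 6.77e-08), and *Myl4* was at 1.29-fold (adjusted p = 0.0773). After TAC in Ctrl hearts, *Dkk3* rose by 3.24-fold (edgeR, adjusted p = 4.23e-05) and *Myl4* by 1.39-fold (adjusted p = 0.0360), while the *Myl4* change in KO hearts did not pass.

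The mean log2 ratio of *Gja5* to *Gja1* was -5.88 in Ctrl sham, -6.03 in KO sham, -5.79 in Ctrl TAC and -5.87 in KO TAC. An exact two-sided permutation test of 4 against 4 libraries, whose smallest possible p is 0.0286, gave 0.400 for KO TAC against KO sham and 0.714 for Ctrl TAC against Ctrl sham. The 8 tests of this ratio and of the *Dsp* to *Cdh2* ratio had adjusted p-values of 0.686 to 0.914. With 8 tests, a single fully separated ratio would reach an adjusted p of 0.229, and at least 5 would have to be fully separated to pass 0.05, so the design could hardly pass these tests.

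**Figure D3:**
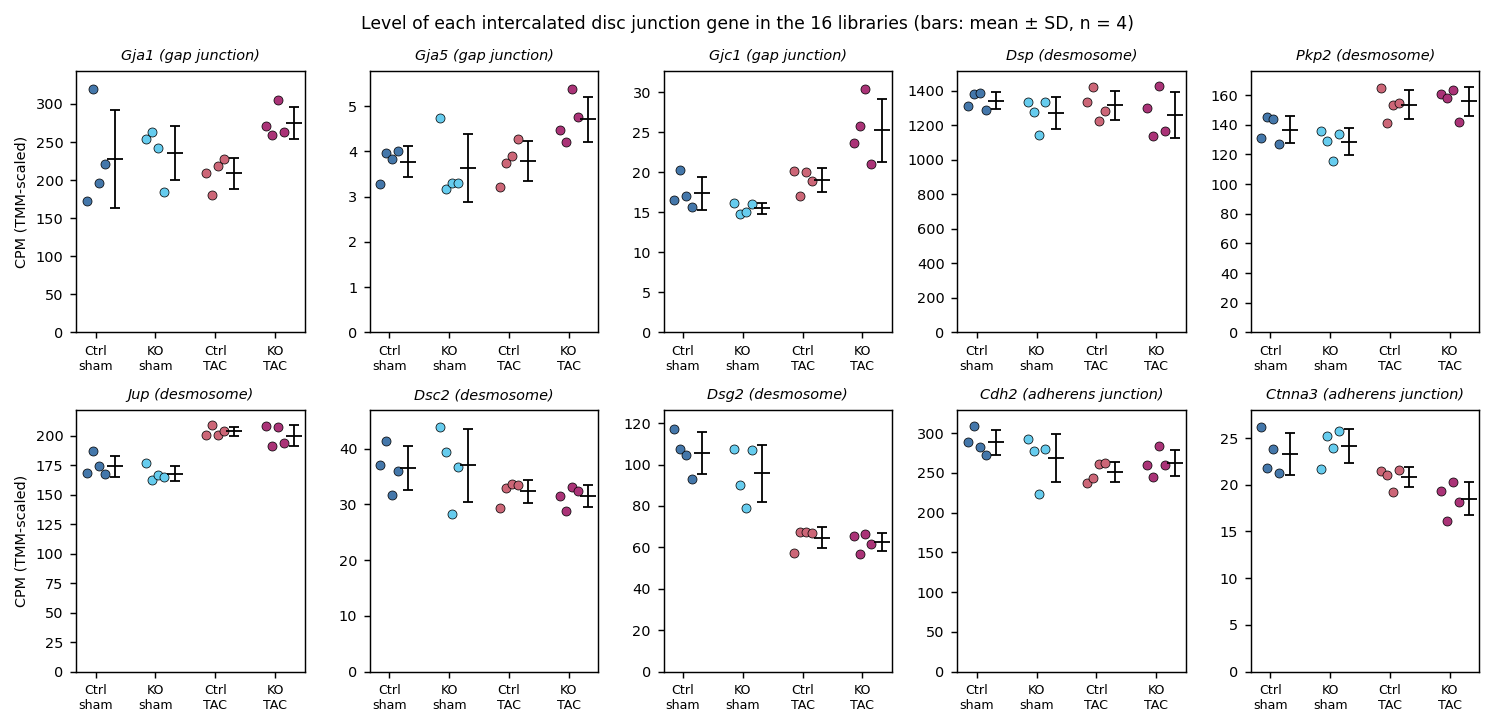
CPM of each of the 10 junction genes in the 16 libraries, with the 4 libraries of each group as points and the group mean ± SD beside them. Dsg2 is lower and Jup higher in all TAC libraries than in all sham libraries of the same genotype, and Gjc1 is highest in the 4 KO TAC libraries.

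Among the desmosome genes, *Dsg2* encodes desmoglein-2, the desmoglein of the heart. Its levels were 117, 108, 105 and 92.9 CPM in Ctrl sham and 57.3, 67.4, 67.5 and 66.7 CPM in Ctrl TAC. KO sham hearts had 108, 90.0, 78.9 and 107 CPM, and KO TAC hearts had 65.3, 56.6, 66.5 and 61.5 CPM. The highest of the 8 TAC libraries was below the lowest of the 8 sham libraries. *Dsg2* fell by 0.71 on the log2 scale in Ctrl hearts (SE 0.09, adjusted p = 4.53e-05) and by 0.62 in KO hearts (SE 0.09, adjusted p = 6.55e-05). Both calls held in all 25 alternative fits, including the one adjusted for the number series, which gave -0.78 for Ctrl hearts. The interaction was 0.09 (SE 0.13, 95% interval -0.19 to 0.37, adjusted p = 0.860).

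*Dsc2* encodes desmocollin-2, the partner cadherin of desmoglein-2, and its gene lies 499 kb from *Dsg2* on chromosome 18. Ctrl sham hearts had 37.1, 41.4, 31.7 and 36.0 CPM and Ctrl TAC hearts 29.3, 33, 33.7 and 33.5 CPM. KO sham hearts had 43.9, 39.3, 28.4 and 36.6 CPM and KO TAC hearts 31.5, 28.9, 33.2 and 32.5 CPM. The groups overlapped in both genotypes, and KO sham 3 was the lowest of all 16 libraries. The *Dsc2* change after TAC was -0.18 in Ctrl (SE 0.10, adjusted p = 0.269) and -0.23 in KO hearts (SE 0.10, adjusted p = 0.0953). Without KO sham 3 the *Dsc2* change in KO hearts was -0.34 with an adjusted p of 0.00414.

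*Jup* encodes plakoglobin, a plaque protein shared by desmosomes and adherens junctions. It had 169, 187, 175 and 168 CPM in Ctrl sham and 201, 209, 201 and 204 CPM in Ctrl TAC. It had 177, 162, 167 and 165 CPM in KO sham and 209, 191, 207 and 194 CPM in KO TAC. All 8 TAC libraries lay above all 8 sham libraries. The rise was 0.22 in Ctrl (SE 0.05, adjusted p = 0.00242) and 0.25 in KO hearts (SE 0.05, adjusted p = 0.000419), and both calls held in all 25 alternative fits.

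*Pkp2* encodes plakophilin-2, which clusters the desmosomal cadherins with desmoplakin. It had 131, 145, 144 and 127 CPM in Ctrl sham and 165, 141, 153 and 155 CPM in Ctrl TAC. It had 136, 129, 116 and 134 CPM in KO sham and 160, 158, 164 and 142 CPM in KO TAC. The Ctrl groups overlapped through Ctrl TAC 2, and the KO groups did not overlap. *Pkp2* rose by 0.28 in KO hearts (SE 0.06, adjusted p = 0.00267), and the change in Ctrl hearts was 0.17 (SE 0.06, adjusted p = 0.0800). In Ctrl hearts *Pkp2* was called without Ctrl TAC 2 (0.21, adjusted p = 0.0368) and in the fit adjusted for the number series (0.29, adjusted p = 0.0176), and in KO hearts its call was lost with a term for numbers starting with 33 (0.20, adjusted p = 0.0962).

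*Dsp*, the most abundant member, stayed within 1135 to 1429 CPM in all 16 libraries. Its means were 1341 ± 49.2 CPM in Ctrl sham, 1273 ± 91.8 in KO sham, 1316 ± 83.3 in Ctrl TAC and 1258 ± 134 in KO TAC (SD, n = 4 each). The change after TAC was -0.03 in Ctrl hearts (95% interval -0.18 to 0.12, adjusted p = 0.841) and -0.02 in KO hearts (95% interval -0.17 to 0.13, adjusted p = 0.885). Of the 5 desmosome genes, 1 rose and 1 fell in Ctrl hearts (10.4% and 9.60% of all genes), and 2 rose and 1 fell in KO hearts (17.8% and 16.5%).

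In the adherens junction, *Cdh2* encodes N-cadherin, the classical cadherin of the disc. Ctrl sham hearts had 288, 309, 283 and 273 CPM and Ctrl TAC hearts 237, 244, 261 and 263 CPM. KO sham hearts had 293, 277, 224 and 280 CPM and KO TAC hearts 260, 245, 284 and 259 CPM. The Ctrl groups did not overlap, but the change was -0.20 with an adjusted p of 0.0610 (SE 0.07), just outside the threshold. The KO groups overlapped, and the change was -0.04 (SE 0.07, adjusted p = 0.750). The *Cdh2* change in Ctrl hearts passed with DESeq2 (adjusted p = 0.0443), in the fit to the 8 Ctrl libraries (0.0403), with the term for numbers starting with 33 (0.0421), with cardiomyocyte marker scaling (0.0481) and without KO sham 3 (0.0167). The mean log2 ratio of *Dsp* to *Cdh2* was 2.22 in Ctrl sham and 2.39 in Ctrl TAC (exact permutation p = 0.143).

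*Ctnna3* encodes αT-catenin, which links cadherins to actin at the disc and also binds plakophilin-2. Ctrl sham hearts had 26.2, 21.8, 23.8 and 21.3 CPM and Ctrl TAC hearts 21.5, 21.1, 19.2 and 21.6 CPM. KO sham hearts had 21.7, 25.2, 23.9 and 25.8 CPM and KO TAC hearts 19.3, 16.2, 20.3 and 18.2 CPM. The KO groups did not overlap, and the Ctrl groups did. *Ctnna3* fell by 0.38 in KO hearts (SE 0.08, adjusted p = 0.00100), a call kept in all 25 alternative fits, and the change in Ctrl hearts was -0.16 (SE 0.08, adjusted p = 0.173). KO TAC against Ctrl TAC gave -0.17 (SE 0.08, adjusted p = 0.258), and the interaction was -0.22 (SE 0.11, adjusted p = 0.472).

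**Figure D4:**
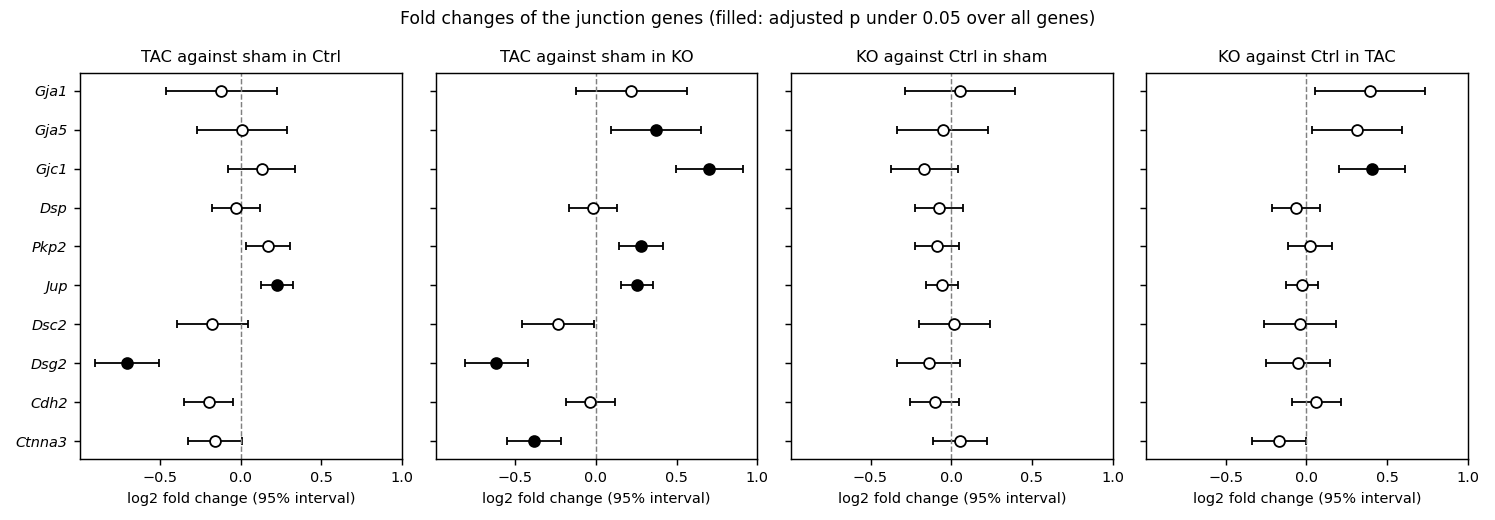
Log2 fold changes of the 10 junction genes with 95% intervals in 4 comparisons, with filled points for genes called at an adjusted p under 0.05. After TAC, 2 genes are called in Ctrl hearts and 6 in KO hearts, 0 between the sham groups, and Gjc1 between the TAC groups.

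Over the set, the groups did not overlap for 3 members in Ctrl hearts (20.5% of all genes) and for 5 in KO hearts (34.6%). The median change of the 10 members was -0.07 in Ctrl and 0.10 in KO hearts, and that of all genes was 0.00 in both. The 2 responses rest on separate sham and TAC libraries, and the interaction called 0 of 10 members, with 1 at an unadjusted p under 0.05, *Gjc1*, against 0.0109% and 11.1% of all genes.

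Between the genotypes, KO sham against Ctrl sham called 0 members with edgeR and 0 with DESeq2, and 0 members had an unadjusted p under 0.05 (0% and 2.62% of all genes with edgeR). The sham groups overlapped for all 10 members, and 1.78% of all genes did not overlap. The intervals of the sham differences were narrowest for *Jup*, at -0.15 to 0.04 on the log2 scale, and widest for *Gja1*, at -0.29 to 0.40. In TAC hearts 1 member, *Gjc1*, was called higher (1.36% of all genes) and 0 lower (1.32%), and 2 members, *Gjc1* and *Gja1*, did not overlap (10.5%). The differences between KO TAC and Ctrl TAC were 0.31 to 0.41 for the 3 connexins, of which *Gja1* and *Gja5* did not pass, and -0.07 to 0.02 for the 5 desmosome genes, and the gap between these sets was not tested. Among other connexins, *Gja3* was at -0.13, Gjc3 at -0.59 and Gja4 at 0.19, and none of these was called (adjusted p = 0.290 to 0.667 with edgeR).

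The scaling matters for these small changes. Libraries were also scaled to the 10 cardiomyocyte markers in place of all genes. With TMM, 2 of these markers were called higher and 5 lower after TAC in KO hearts (17.8% and 16.5% of all genes), so this reference itself changed. On the marker scale the median of all genes moved up by 0.16 in the TAC comparison of KO hearts and by 0.16 between KO TAC and Ctrl TAC. On that scale *Gjc1* (0.57, adjusted p = 0.00305), *Gja1* (0.55, 0.0371), *Gja5* (0.47, 0.0217) and *Cdh2* (0.22, 0.0462) were called higher in KO TAC than in Ctrl TAC, of which *Cdh2* lay 0.06 above that shift. On that scale 18.5% of all genes were called higher and 0.487% lower in this comparison, so the 4 member calls are not particular to the members. After TAC in KO hearts, 32% of all genes were called higher on that scale and 8.03% lower. The same 6 members were called there in the same directions, with *Dsg2* at -0.46, *Ctnna3* at -0.23, *Jup* at 0.41, *Pkp2* at 0.44, *Gja5* at 0.53 and *Gjc1* at 0.86.

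Other junction genes were taken from a list of 66 symbols, of which 41 passed the count filter. TAC called 9 of the 41 higher and 6 lower in Ctrl hearts, and 10 higher and 8 lower in KO hearts, against 10.4% and 9.60% of all genes in Ctrl and 17.8% and 16.5% in KO hearts. The median changes of the 41 were 0.07 and 0.03. *Xirp2*, an actin-binding protein of the disc, rose by 1.85 in Ctrl and 2.02 in KO hearts, and *Nrap*, which anchors terminal actin filaments, rose by 0.79 and 0.59. *Sorbs2*, an actin-linked adaptor protein, rose by 0.71 in both genotypes, and *Cdh11*, a cadherin of mesenchymal cells, rose by 0.56 and 0.68. *Ppl*, the desmosome-associated plakin periplakin, fell by 1.29 and 2.05, and *Tmem65*, a membrane protein of the disc, fell by 0.36 and 0.44.

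Closest in function to the members, *Ctnna1*, the widely expressed alpha-catenin, fell in both genotypes, by 0.23 in Ctrl (adjusted p = 0.000565) and by 0.32 in KO hearts (adjusted p = 1.02e-05). *Ctnnb1*, the beta-catenin gene, changed by 0.01 in Ctrl and 0.02 in KO hearts (adjusted p = 0.953 and 0.761). *Tjp1*, which encodes the connexin-binding scaffold ZO-1, was at -0.08 and -0.14 (adjusted p = 0.364 and 0.0623), and was called in KO hearts with DESeq2 (0.0482) and without KO TAC 3 (0.0215). *Vcl*, which encodes the actin-linking protein vinculin, was at 0.17 and 0.03 (adjusted p = 0.150 and 0.829). *Ctnnal1*, a catenin-like gene, fell by 0.77 in KO hearts, and its fall of 0.36 in Ctrl hearts (adjusted p = 0.0423) was lost in 10 of 16 fits that left 1 library out. *Nectin2*, an adhesion molecule of the adherens junction, fell by 0.45 and 0.32, and *Gja3*, another connexin, fell by 0.43 in KO hearts. The last 2 calls in KO hearts were lost when libraries were scaled to cardiomyocyte markers (adjusted p = 0.126 for *Nectin2* and 0.0695 for *Gja3*).

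Of the 41, 0 were called between the sham groups (0% of all genes with edgeR, 2.62% at an unadjusted p under 0.05, where the 41 had 0), and 1 was called between KO TAC and Ctrl TAC (1.36% of all genes higher and 1.32% lower). This was *Panx1*, a pannexin channel gene named after its values were seen, which was 0.60 higher in KO TAC (SE 0.16, adjusted p = 0.0494). *Panx1* rose after TAC by 1.28 in Ctrl and 1.86 in KO hearts, and it was not refitted under the alternatives. The interaction called 0 of the 41.

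**Figure D5:**
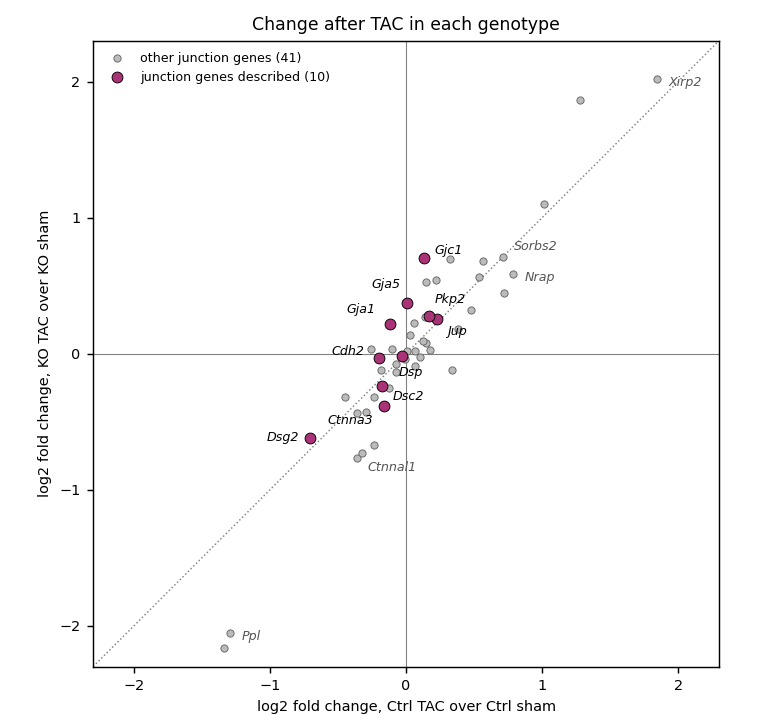
Log2 fold change after TAC in KO hearts (vertical axis) against that in Ctrl hearts (horizontal axis) for the 10 junction genes and 41 other junction genes, with equal change on the dotted diagonal. Gjc1 at 0.13 and 0.70 lies farthest above the diagonal among the 10 genes, Dsg2 lies near it at -0.71 and -0.62, and Xirp2 and Ppl are among the most changed of the other genes.

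The members varied together to different degrees across libraries, which share depth, dissection and group. After the group means were removed, Pearson's r of log2 CPM over the 16 libraries was 0.88 for *Dsc2* and *Cdh2*, 0.80 for *Dsg2* and *Cdh2* and 0.69 for *Dsc2* and *Dsg2*. These 3 cadherin genes lie on the same chromosome, *Cdh2* at chr18:16588877-16809246, *Dsc2* at chr18:20030633-20059554 and *Dsg2* at chr18:20558074-20604521, and KO sham 3 had the lowest *Cdh2* and *Dsc2* levels of all libraries. *Gjc1* and *Pkp2*, on chromosomes 11 and 16, had r = 0.74. *Ctnna3* and *Jup* had r = 0.00 within groups and -0.67 over all libraries, so their relation followed the group means.

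The genes most like each called member were sought among 10104 well-expressed genes by Pearson's r of log2 CPM over the 16 libraries. For *Dsg2* these were *Srrm2* (r = 0.97) and *Zfp523* (0.97), for *Jup* *Sorl1* (0.94) and *Atp8b2* (0.93), and for *Gjc1* *Sfrp1* (0.94), a secreted Wnt antagonist, and *Hif1a* (0.94), the oxygen-responsive transcription factor. For *Pkp2* they were *Nin* (0.92) and *Snx4* (0.90), for *Ctnna3* *Tmem260* (0.91) and *Lman1* (0.91), and for *Gja5* *Hsd17b7* (0.87) and *Ccnd2* (0.82). The members named here differ between groups, and the correlations describe these 16 libraries without a test.

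The remaining members lie on other chromosomes of GRCm38. *Gja1* is at chr10:56377330-56402513 and *Ctnna3* at chr10:63430098-65003667, both on the plus strand. *Gja5* is at chr3:96904693-97077416, *Dsp* at chr13:38151294-38198577 and *Pkp2* at chr16:16213318-16272712 on the plus strand, and *Gjc1* at chr11:102799579-102819700 and *Jup* at chr11:100368958-100397763 on the minus strand. Counts were given per gene, so isoforms were not separated. *Dsp* shares 499 exonic bases with *Gm10129*, which had 8 to 24 counts, and *Dsg2* shares 330 with *Gm16090*, which had 2 to 16 counts, against 3255 or more for *Dsg2*.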

How the data were processed

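Total RNA of the heart apex was made into poly(A)-selected TruSeq libraries and sequenced as paired 150-base reads. The deposited values are raw counts per Ensembl gene for 16 libraries. Per the submitters' processing notes the tools were cutadapt 2.3, FastQC, HISAT2 2.1.0 and edgeR 3.26.1 on GRCm38; the counting program, the annotation and the strand setting are not given in the sources used here. Gene symbols matched for 55227 of 55487 IDs (99.53%).

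The authors' counts were filtered with filterByExpr, scaled by TMM and fitted in 1 model over the 4 groups with edgeR 4.0.16 (R 4.3.3, robust quasi-likelihood, Benjamini-Hochberg over 18275 genes). Ratios of 2 genes were tested with exact permutation tests. The edgeR fit was tested on simulated data in the comparison of Ctrl TAC with Ctrl sham, and the other steps were not. Totals of 53169437 to 79404714 counts put members at 181 or more counts per library. Counts of libraries of the same group differed by more than sampling noise. Replicates were numbered in accession order and were not paired.

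The members and gene lists were chosen with earlier results of these data known. The 10 members are always named; of the other junction genes, up to 4 called genes per direction and comparison whose mean log2 CPM was 2 or more, plus Tjp1, Vcl, Ctnnb1 and Ctnna1; and for each called member the 2 genes with the highest r. Alternatives were other scalings, DESeq2 1.42.0, other count filters, a threshold of 0.01, terms for the animal-number series, fits to 8 libraries and leaving out libraries.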

Additional observations from a re-analysis of the deposited data

Results flagged for a closer look

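In each group of 4 libraries, the gap between the highest or lowest library and its neighbour was compared with the range of the group for the 10 members and the 2 ratios, 48 groups in all. A gap above 0.829 of the range marks a library far from the others, and chance gives about 1 in 20. It was exceeded 3 times. Gja5 in KO sham 1 (4.74 CPM, gap 0.912 of the range) was far above the other KO sham libraries. Dsg2 in Ctrl TAC 1 (57.3 CPM, 0.926) and Dsc2 in Ctrl TAC 1 (29.3 CPM, 0.844) were far below the other Ctrl TAC libraries. Ctrl TAC 1 is also the only Ctrl TAC animal whose number starts with 3, and the cause was not tested.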

How the results depend on the processing

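The number of members called after TAC was 2 in Ctrl hearts, and 2 to 3 when 1 library was left out, and 6 in KO hearts, and 5 to 6 when 1 library was left out. These counts stayed within 1.5 times under the other alternatives run, and the sham comparison gave 0 members under all of them. Between KO TAC and Ctrl TAC the count of 1 became 0 at an adjusted p under 0.01, in the fit adjusted for the number series of the animals and without both Ctrl TAC 2 and KO TAC 4, 0 to 1 when 1 library was left out, and 4 with cardiomyocyte marker scaling, which called 3373 of 18275 genes higher and 89 lower against 248 and 241 as reported. The interaction count of 0 became 1, Gjc1, with DESeq2 (132 of all genes) and with cardiomyocyte marker scaling (355 of all genes, against 2 as reported), and stayed 0 (0 to 0) when 1 library was left out. The causes were not tested. No called change of a member turned its direction. Of 1000 values of members that were called neither in the reported fit nor in the alternative, 53 changed sign. The ratios of Gja5 to Gja1 and of Dsp to Cdh2, whose tests could hardly pass in a design of this size, had changes when 1 library was left out of -0.30 to 0.26 for the first and -0.18 to 0.22 for the second. Gja5 rested on 181 to 395 counts per library, the fewest of the members, and the others on 799 or more. No paired analysis was possible because the labels carry no shared replicate numbers.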
